A study of Rattus norvegicus with 23 samples.

Results

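The ATP-binding cassette (ABC) family was taken as the 47 protein-coding genes whose symbols begin with Abca to Abcg and a digit, out of 32883 gene identifiers in the count table. Abca1 and Abcg1 were left out by that rule. The rule used names and no measured value, but the members were chosen with earlier results of these data known. Enough reads for a test were present for 32 of the 47 genes and absent for 15. Abcb1a and Abcb1b, the rodent P-glycoprotein genes, have no entry under those 2 symbols and were not analysed here.

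RNA was sequenced from primary rat brain endothelial cells grown beside pericytes and astrocytes, an arrangement that models the blood-brain barrier, with 1 endothelial lysate of 1 culture insert per library. The groups were OGD/R + DMT + BD1063 (n = 6), OGD/R + DMT (n = 5), OGD/R alone (n = 6) and normoxia (n = 6). OGD/R is a spell without oxygen and glucose that ends with the return of oxygen, and all inserts outside the normoxia group went through it. DMT is N,N-dimethyltryptamine, a compound that binds serotonin and sigma receptors, and BD1063 is a sigma receptor antagonist that was given here on top of DMT. The first of these groups is called the BD1063 group and the second the DMT group. No group given DMT in normoxia, or BD1063 without DMT, was analysed here. Doses, durations and the animals' age are not given in the sources used here, nor is whether inserts came from separate cell preparations. The p-values therefore measure the spread between inserts, which may be technical.

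ABC proteins bind and hydrolyse ATP in a conserved domain, and most of them couple this to moving a substrate across a membrane. In brain capillaries, pumps in the plasma membrane of the endothelium return drugs and conjugates to the blood, with P-glycoprotein and Abcg2 as the best known of them. Other members work inside the cell, moving lipids, heme precursors, peptides, fatty acyl-CoA or vitamin B12 across the membranes of organelles. Members of subfamilies E and F have the ATP-binding domain but no membrane part, and act on ribosomes, so they carry the family name without being transporters.

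Libraries held 12162759 to 18565166 counts, and the 47 genes together took 0.163% to 0.187% of them in 21 libraries. The libraries DMT 5 and OGD/R 5 stood apart, with 0.137% and 0.139%. These 2 libraries also held more ribosomal protein RNA, 3.63% of counts in DMT 5 and 3.41% in OGD/R 5, where the remaining 21 had 1.91% to 2.55%. DMT 5 was the lowest library of its group for 23 of the 32 genes tested, OGD/R 5 for 18 and normoxia 3 for 15, while each of the other 20 libraries was the lowest for at most 10. Library OGD/R 3 differed in another way, with 2.54% of its counts from noncoding RNA. The comparisons that use these libraries were also fitted without each of them, and without all 3 together. Of 10 endothelial markers 9 were found, and all 9 averaged at least 1 CPM, which are counts scaled to a common library size. Their summed level was 7899 to 8249 CPM in the BD1063 group, 8054 to 8938 CPM in the DMT group, 7427 to 8688 CPM in OGD/R and 8425 to 9089 CPM in normoxia. In such bulk lysates fewer cells of a type and less RNA per cell cannot be told apart.

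**Figure D1:**
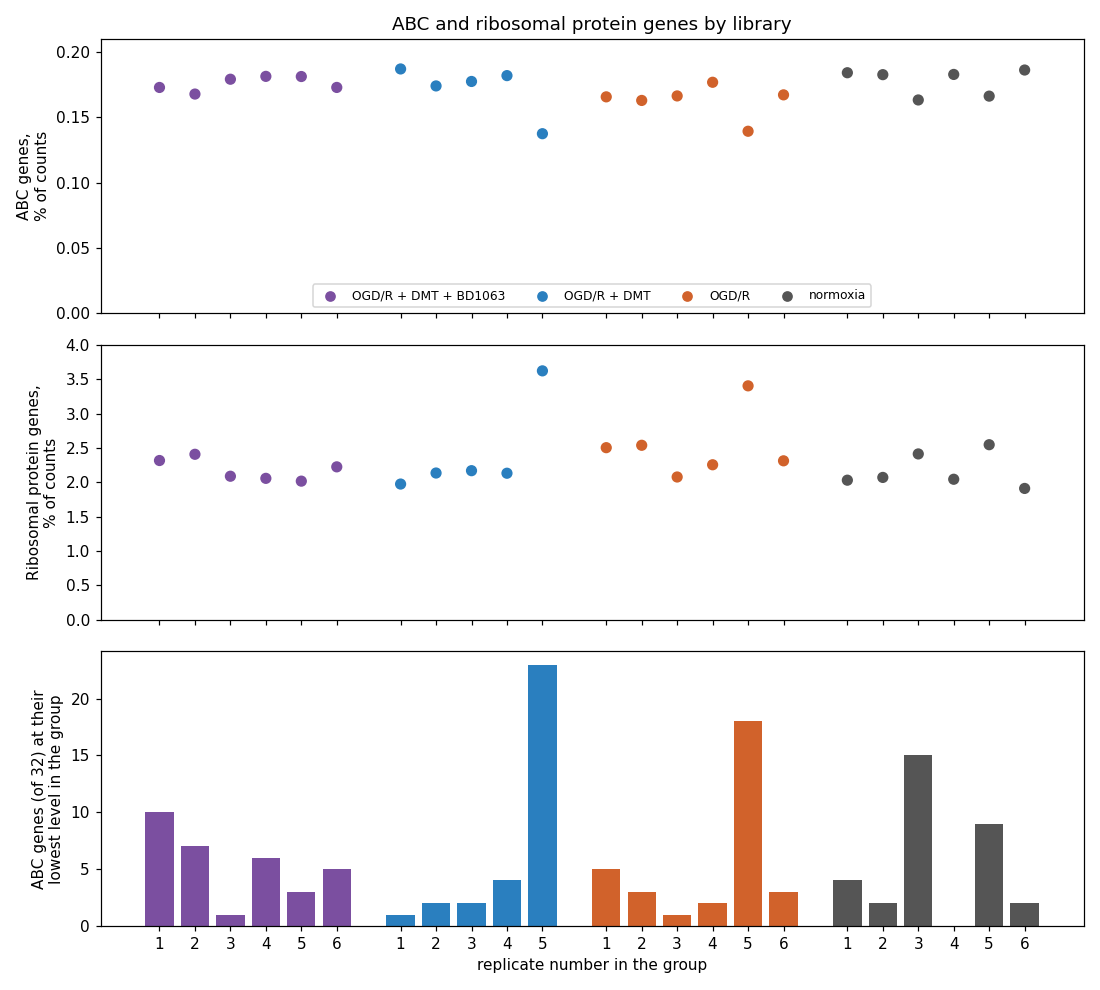
ABC genes in each library. Each point is 1 library, with the share of counts from the 47 ABC genes (top, percent) and from ribosomal protein genes (middle, percent), and bars count the genes, of 32, that were lowest in that library within its group. DMT 5 and OGD/R 5 have the lowest ABC share, 0.137% and 0.139%, and the highest ribosomal protein share, 3.63% and 3.41%.

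Differences among the 4 groups as a whole were found for 11 of the 32 genes, in a joint edgeR quasi-likelihood test with an adjusted p threshold of 0.05, beside 34.1% of all 13834 genes tested. They included Abca2, Abca4, Abca7, Abcb8, Abcb10, Abcd4, Abce1, Abcf1, Abcf2 and Abcg2. No member of subfamily C was among them, out of 7 tested, though Abcc5 was added without DMT 5. The calls of Abca2 and Abcb10 rested on single libraries: both were lost without OGD/R 1, BD1063 3 or BD1063 4. Abca2 was also lost without OGD/R 2, OGD/R 5, BD1063 5 or any of DMT 1 to DMT 4. It passed the threshold in none of the 6 comparisons between groups in edgeR. Levels of the 10 genes listed are described below, with 3 values (lowest, median and highest) for each group of 6 and with each library for the DMT group.

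**Figure D2:**
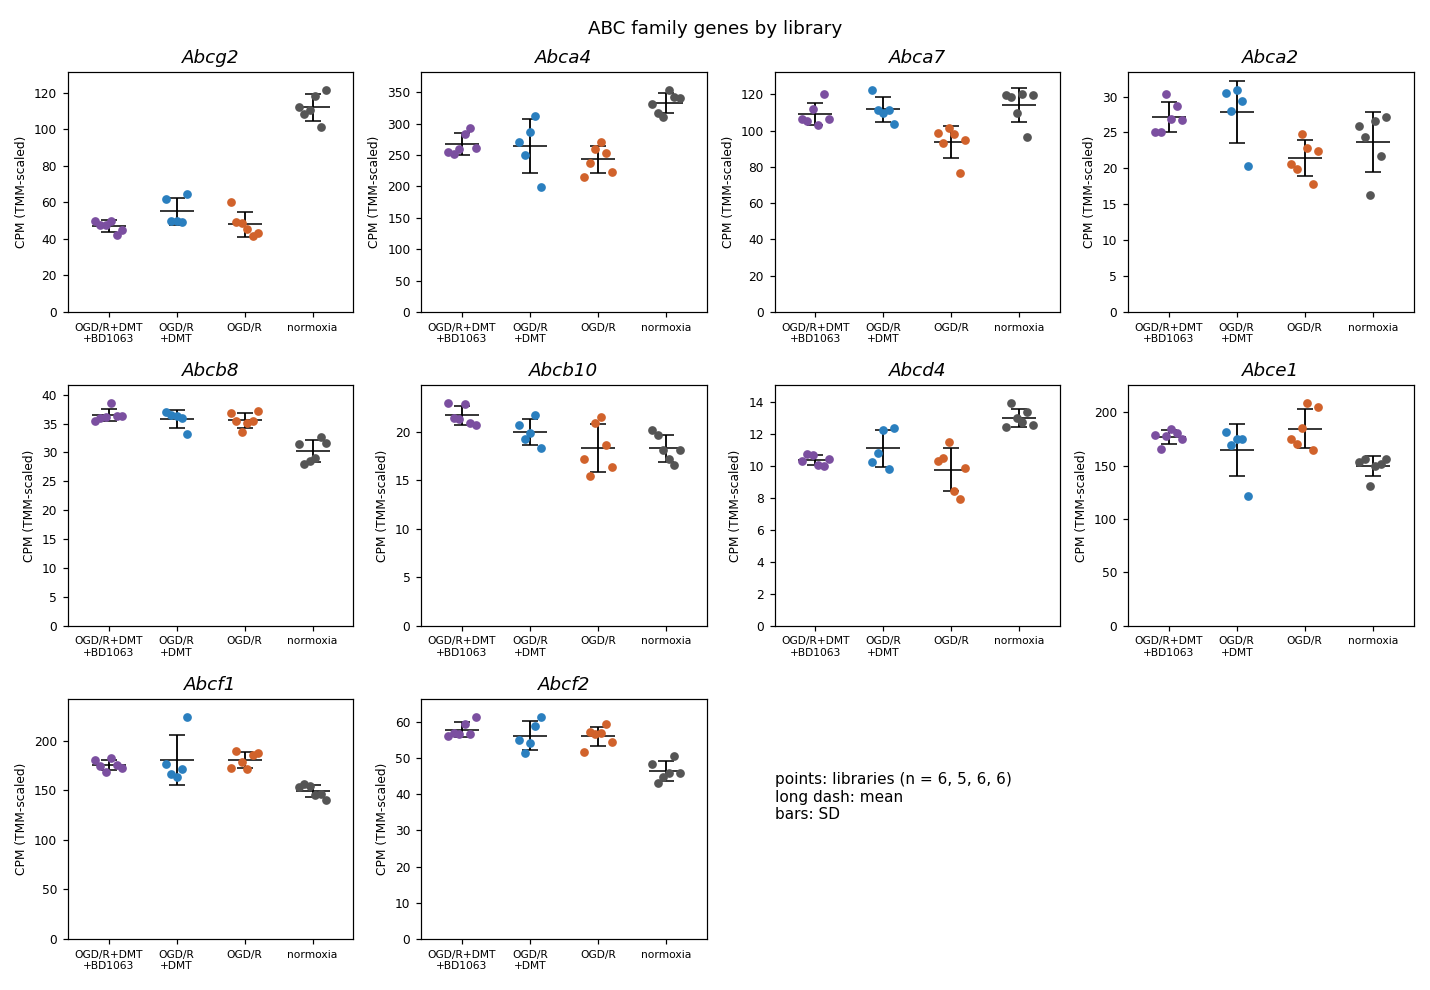
Levels of 10 genes that differed among groups. Each point is 1 library in CPM after TMM scaling on an axis that starts at 0, with the mean as a long dash and the SD as bars, for OGD/R + DMT + BD1063 (n = 6), OGD/R + DMT (n = 5), OGD/R (n = 6) and normoxia (n = 6). All 17 libraries exposed to OGD/R lie between 41.4 and 64.5 CPM for Abcg2, below the normoxia libraries at 101 to 122 CPM.

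The first comparison set OGD/R alone against normoxia. In OGD/R inserts 6 of the 32 genes fell and 4 rose, against 16.7% lower and 18.9% higher, 35.5% in all, among all genes tested. The share of ABC genes that changed was therefore near that of the transcriptome. The genes that fell were the efflux pump genes Abcg2 and Abcc5, the lipid transporter genes Abca4 and Abca7, the lysosomal vitamin B12 transporter gene Abcd4 and Abcg3l3. The genes that rose were the mitochondrial transporter gene Abcb8 and the genes of the soluble proteins Abce1, Abcf1 and Abcf2. The median log2 fold change was -0.06 over the 32 genes and 0.01 over all genes, with Abcg2 lowest at -1.22 and Abcc2, a gene at a mean of 0.521 CPM, highest at 0.64 and not past the threshold (adjusted p = 0.15). OGD/R and normoxia libraries did not overlap for 7 of the 32 genes, which were Abcg2, Abca4, Abcd4, Abcb8, Abce1, Abcf1 and Abcf2, beside 16.4% of all genes.

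**Figure D3:**
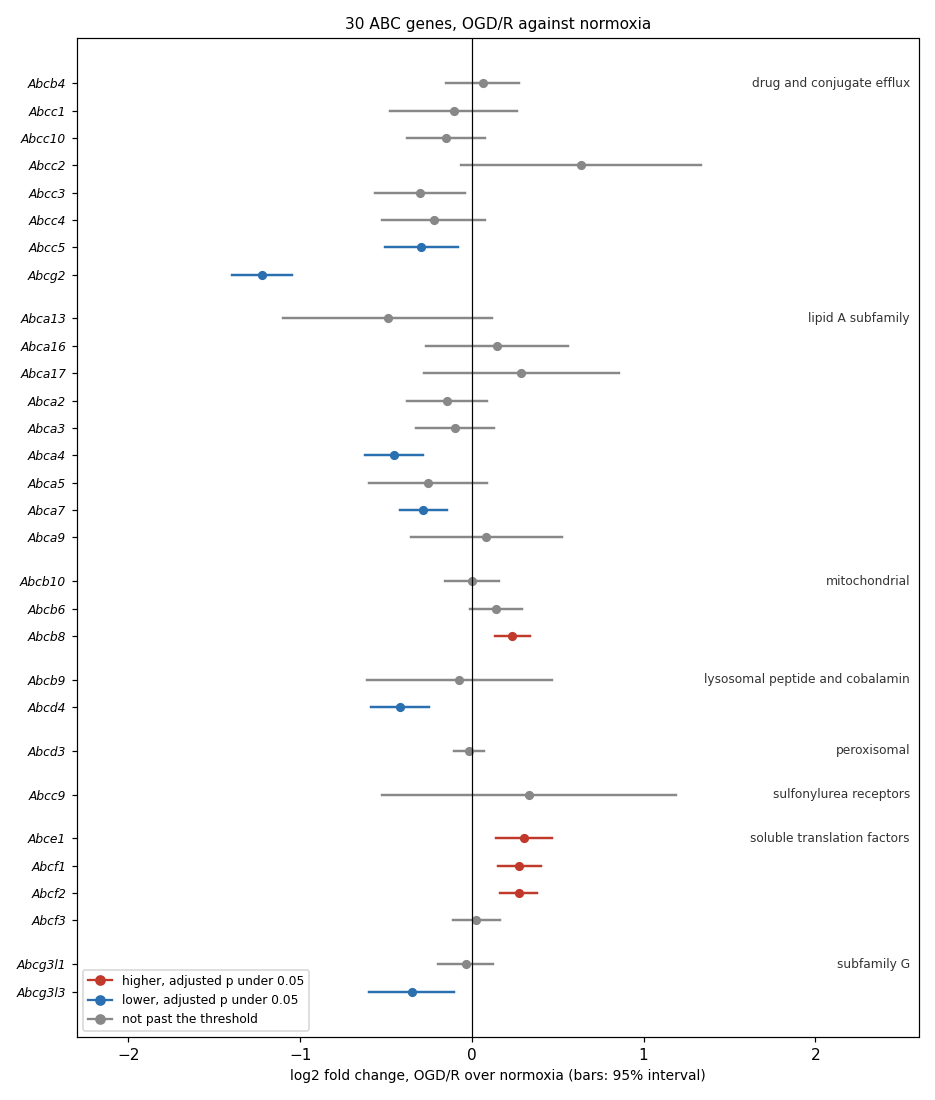
ABC genes in OGD/R (n = 6) against normoxia (n = 6). Points are edgeR log2 fold changes, OGD/R over normoxia, and bars their 95% intervals, for 30 of the genes tested, grouped by known role and coloured by whether the adjusted p passed 0.05. Abcg2 stands at -1.22, apart from the other 9 genes past the threshold, which lie between -0.45 and 0.30.

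Among the 8 tested genes of pumps for drugs and conjugates, 2 fell and 0 rose in OGD/R. Abcg2 encodes the breast cancer resistance protein, which exports many drugs, urate and sulfate conjugates at the luminal face of brain capillaries. Its level was 41.4 CPM in the lowest OGD/R library, with a median of 46.995 and a highest value of 60.0, against 101, 111 and 122 CPM in normoxia. The groups lay far apart, with no OGD/R library near the lowest normoxia library. Abcg2 averaged 48.0 ± 6.67 CPM in OGD/R and 112 ± 7.28 CPM in normoxia (SD, n = 6 each), a log2 fold change of -1.22 ± 0.09 (SE; 95% interval -1.40 to -1.05; adjusted p = 1.65e-10). Leaving out any 1 library moved that change between -1.30 and -1.19.

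The promoter of Abcg2 is printed because that gene carries the largest called change of the family, and those of Abce1 and Abcf2 because they share a letter run with it. In 38 of the 47 genes a promoter was found in the RefSeq annotation of the rat genome build GRCr8, which is not the build Rnor_6.0 named in the submitters' processing notes. Genes with no matched window included Abca17, Abca8a, Abcb11, Abcc3, Abcc5, Abcc8 and Abcf1. The windows hold the 250 bases before the annotated start of transcription, 5′ to 3′ on the plus strand, at chr4:89075224-89075473 for Abcg2, chr19:45109685-45109934 for Abce1 and chr4:11487072-11487321 for Abcf2. Capitals mark TGACGTCA, the palindrome of the cyclic AMP response element.
Abcg2: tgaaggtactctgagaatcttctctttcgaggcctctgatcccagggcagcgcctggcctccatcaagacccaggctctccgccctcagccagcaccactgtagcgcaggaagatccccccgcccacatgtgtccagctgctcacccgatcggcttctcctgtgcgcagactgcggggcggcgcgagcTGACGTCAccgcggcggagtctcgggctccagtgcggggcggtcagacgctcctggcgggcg
Abce1: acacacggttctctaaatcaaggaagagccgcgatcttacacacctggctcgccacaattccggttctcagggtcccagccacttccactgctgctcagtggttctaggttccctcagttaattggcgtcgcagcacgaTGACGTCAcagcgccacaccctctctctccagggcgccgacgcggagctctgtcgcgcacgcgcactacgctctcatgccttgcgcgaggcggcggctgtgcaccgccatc
Abcf2: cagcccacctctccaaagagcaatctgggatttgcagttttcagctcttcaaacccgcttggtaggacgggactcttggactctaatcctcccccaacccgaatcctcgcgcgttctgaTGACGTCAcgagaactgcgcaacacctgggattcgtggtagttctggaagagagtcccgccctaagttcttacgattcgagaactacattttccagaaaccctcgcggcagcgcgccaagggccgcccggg
Among 38 ABC windows these were the 3 with TGACGTCA, and 1.59% of all 33469 windows held it. All 3 genes differed among the groups, but in both directions: Abcg2 fell in OGD/R, and Abce1 and Abcf2 rose. This run was 1 of 9 searched on both strands, and a match is a description of letters, not of a bound site.

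Abcc5, a pump for cyclic nucleotides and organic anions, was the other efflux gene that fell, with a log2 fold change of -0.29 ± 0.10 (adjusted p = 0.028). It stood at 45.1 to 68.0 CPM in OGD/R, with the lowest value in OGD/R 5, and at 65.9 to 82.1 CPM in normoxia, so the groups overlapped. The call was lost without OGD/R 5 (-0.23, adjusted p = 0.0658), without normoxia 2 (adjusted p = 0.0634) and without normoxia 6 (adjusted p = 0.0546). The other 6 efflux genes did not pass the threshold. Abcc4, a pump for prostaglandins and cyclic nucleotides on the luminal side of brain capillaries, had a log2 difference of -0.22 ± 0.15 (adjusted p = 0.245). Abcc3 had -0.30 ± 0.13 (adjusted p = 0.0648), Abcc10 -0.15 ± 0.11 and Abcc1, a glutathione conjugate pump, -0.11 ± 0.18. Abcb4 encodes the phosphatidylcholine translocator and its difference was 0.06 ± 0.10 (95% interval -0.15 to 0.27), at 139 to 199 CPM in OGD/R and 138 to 187 CPM in normoxia. It is a close copy of the P-glycoprotein genes and lies next to Abcb1b in the RefSeq gene order, so how reads were divided between them is uncertain.

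The A subfamily holds large lipid transporters, and of 9 tested genes 2 fell and 0 rose in OGD/R. Abca4 encodes the flippase that clears retinal conjugates in photoreceptors. OGD/R libraries held 215 CPM of Abca4 at the lowest, 245 at the median and 270.5 at the highest, against 311, 336 and 354 CPM in normoxia. Every OGD/R library thus lay below every normoxia library, with a log2 fold change of -0.45 ± 0.08 (adjusted p = 0.000112). Abca7, a phospholipid exporter related to Abca1, held 76.8, 96.5 and 101 CPM in OGD/R, against 96.7, 119 and 120.3 CPM in normoxia. Normoxia 5 was the library that brought the Abca7 groups into overlap, and OGD/R 5 was the lowest of all. The fall of Abca7 was -0.28 ± 0.07 as a log2 fold change (adjusted p = 0.00168).

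Abca2, which encodes a lysosomal lipid transporter, held 17.9, 21.6 and 24.9 CPM in OGD/R, against 16.3, 25.1 and 27.2 CPM in normoxia. Those ranges overlapped nearly whole, and the difference of -0.14 ± 0.11 did not pass the threshold (adjusted p = 0.34). Abca3, the lamellar body transporter of lung surfactant, stood at -0.10 ± 0.11, Abca5 at -0.25 ± 0.17 and Abca9 at 0.08 ± 0.21. Abca9 lies in a cluster with Abca8, Abca8a, Abca6 and Abca5 in the RefSeq gene order. It had 15686 reads over 23 libraries, while Abca8, Abca8a and Abca6 had 8, 5 and 7.

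All 4 mitochondrial members were tested, and 1 rose in OGD/R. Abcb8, a transporter of the inner mitochondrial membrane, held 33.5, 35.5 and 37.2 CPM in OGD/R, against 28.0, 30.3 and 32.6 CPM in normoxia. The groups were separate by a narrow margin, and the rise was 0.24 ± 0.05 on the log2 scale (adjusted p = 0.000736). Abcb8 was among the genes with the least spread between inserts, with an SD of 0.0643 on the log2 scale within groups, lower than all but 1.64% of genes tested. Abcb10, a transporter of the same membrane with a part in heme synthesis, held 15.4, 17.9 and 21.5 CPM in OGD/R, against 16.6, 18.1 and 20.1 CPM in normoxia. Its difference was 0.00 ± 0.08 with a 95% interval of -0.16 to 0.16. Abcb6, a porphyrin transporter, had 0.14 ± 0.07 (adjusted p = 0.15).

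In the lysosomal pair, Abcd4 fell and Abcb9 did not pass the threshold. Abcd4 moves cobalamin (vitamin B12) out of the lysosome. It held 7.95, 10.1 and 11.5 CPM in OGD/R, against 12.4, 12.9 and 13.9 CPM in normoxia. No OGD/R library reached the lowest normoxia library, and the log2 fold change was -0.42 ± 0.08 (adjusted p = 0.000336). Lmbrd1 encodes the lysosomal partner that brings Abcd4 to its membrane, and it fell alongside by 0.45 ± 0.08 (adjusted p = 0.000152), at 84.2 to 105 CPM in OGD/R and 124 to 140.1 CPM in normoxia. Abcb9, a lysosomal peptide transporter at a mean of 1.21 CPM, had -0.07 ± 0.26.

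Abcd3, a peroxisomal transporter that carries branched chain acyl-CoA and bile acid precursors, had the least spread of the family, an SD of 0.0516 on the log2 scale within groups. Its difference was -0.02 ± 0.04 (95% interval -0.10 to 0.07).

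Soluble members gave 3 of the 4 rises. Abce1 encodes the recycling factor that splits ribosomes after termination. Its levels were 165, 180.4 and 209 CPM in OGD/R, against 131, 153 and 156 CPM in normoxia. The groups did not overlap, and Abce1 rose by 0.30 ± 0.08 (adjusted p = 0.00417). Abcf1, which binds the initiation factor eIF2 and ribosomes, had 171, 182 and 189 CPM in OGD/R, against 139.9, 149.7 and 156 CPM in normoxia. It rose by 0.27 ± 0.06, again with every OGD/R library above every normoxia library (adjusted p = 0.00106). Abcf2 had 51.7, 56.8 and 59.3 CPM in OGD/R, against 43.0, 45.9 and 50.6 CPM in normoxia, and it rose by 0.27 ± 0.05 (adjusted p = 0.000294). Abcf3, a relative of yeast GCN20, which acts in the yeast response to amino acid shortage, had 0.03 ± 0.07 (95% interval -0.11 to 0.16).

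The 4 rises were lost when limma was run on the deposited normalized values, log2(value + 1). On that scale 28 of the genes were tested, 0 rose and 7 fell in OGD/R. Among all 12909 genes tested in this way, 3635 were called, of which 1291 were higher. There Abcb8 had an adjusted p of 0.177, Abce1 0.123, Abcf1 0.0634 and Abcf2 0.0624, all still above 0 in sign. Those values use no TMM scaling, and the median of all genes was -0.06 on that scale, against 0.01 in the edgeR fit. With OGD/R 3, OGD/R 5 and DMT 5 left out together, 5 ABC genes rose and 6 fell. The fifth rise was Abcc2. Of all 13891 genes 5306 were then called, of which 2657 were higher.

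The last 2 tested genes are Abcg3l1 and Abcg3l3, rodent genes of the G subfamily, and they are close copies of each other whose reads may have been divided between them unevenly. Abcg3l3 fell by 0.35 ± 0.12 (adjusted p = 0.0257), with 9.41 to 13.8 CPM in OGD/R and 13.4 to 16.6 CPM in normoxia. That call was lost without OGD/R 5 (-0.30, adjusted p = 0.0623). Abcg3l1 had -0.04 ± 0.08. Abcc9, the sulfonylurea receptor that forms vascular potassium channels with Kcnj8, is a mural cell gene of brain vessels and averaged 0.48 CPM. It held 2 to 15 reads per OGD/R library and 5 to 12 per normoxia library, with a difference of 0.33 ± 0.41.

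The 15 untested genes together had 345 of the 620017 reads of the family. Abcc6 led them with 159 reads over 23 libraries, and Abcg4, Abcc12, Abca14, Abcd2 and Abcb11 had 47, 45, 31, 23 and 14. Abca8, Abca6, Abca8a, Abca12, Abcg5 and Abcc8 had at most 8 reads each. No read was counted for Abca15, Abcb5 or Abcg8, which allows up to 3 counts, or 0.00832 CPM over all libraries together, by counting error alone. Abcg5 and Abcg8 form the sterol exporter of liver and gut, and Abcb11 is the bile salt pump of hepatocytes.

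The second question was whether DMT moved these genes in cells exposed to OGD/R. In the DMT group against OGD/R alone, 0 of 32 genes passed the threshold, beside 0.492% of all genes (edgeR). At an unadjusted p under 0.05 there were 4 ABC genes, Abca7, Abca2, Abcg2 and Abcd4, all higher in the DMT group, beside 12.1% of all genes in either direction and 5.99% higher. DESeq2 called 1, Abca7, beside 265 of all genes. Calls by limma voom with sample weights were 2, Abca2 and Abca7, beside 752 of 13834 genes. The median log2 difference was 0.06 over the 32 genes and 0.00 over all genes, with 21 of 32 above 0, beside 50.1%. Library DMT 5 weighed on this comparison over the whole transcriptome, with 1083 of 13935 genes called without it. Of the ABC genes 3 then passed: Abca7 at 0.28 (adjusted p = 0.0249), Abca2 at 0.47 (adjusted p = 0.0149) and Abca3. With OGD/R 3 and OGD/R 5 also left out, 2 passed, Abca2 and Abca7, beside 453 of 13891 genes.

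Abca7 held 123, 111, 109.6, 111 and 104 CPM in the 5 DMT libraries, against 76.8, 96.5 and 101 CPM in OGD/R. Every DMT library was above every OGD/R library, which was so for 1 of the 32 genes, beside 1.37% of all genes. The log2 difference was 0.25 ± 0.07 (95% interval 0.11 to 0.39; adjusted p = 0.111). Abca2 held 30.5, 28.0, 31.0, 29.3 and 20.3 CPM in the DMT group, against 17.9, 21.6 and 24.9 CPM in OGD/R. The first 4 DMT libraries lay above every OGD/R library, and DMT 5 lay among them, with a difference of 0.38 ± 0.12 (adjusted p = 0.162). Of the 9 lipid transporter genes 8 had a difference above 0 in the DMT group, beside 50.1% of all genes. Their median was 0.25, and 0 passed the threshold. The BD1063 group against the same OGD/R libraries also had 8 of the 9 above 0, with a median of 0.22, beside 47.1% of all genes. Abca4 held 271, 249.98, 287, 313 and 199 CPM in the DMT group, on both sides of the OGD/R range of 215 to 270.5 CPM (0.12 ± 0.08, adjusted p = 0.637).

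Abcg2 held 61.9, 49.8, 49.6, 49.1 and 64.5 CPM in the DMT group, against 41.4, 46.995 and 60.0 CPM in OGD/R. DMT 1 and DMT 5 were the high libraries and the other 3 lay within the OGD/R range. The difference was 0.20 ± 0.09, with a 95% interval of 0.01 to 0.38 and an adjusted p of 0.374, and the DMT libraries stayed below the lowest normoxia library at 101 CPM. Abcd4 held 10.2, 10.8, 12.2, 9.82 and 12.4 CPM in the DMT group, against 7.95, 10.1 and 11.5 CPM in OGD/R. Its difference was 0.19 ± 0.09 (adjusted p = 0.397), with overlap between the groups.

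Of the 4 genes that rose in OGD/R, 0 passed the threshold between the DMT group and OGD/R. Abcb8 held 37.0, 36.4, 36.3, 36.0 and 33.2 CPM in the DMT group, with a difference from OGD/R of 0.01 ± 0.05 (95% interval -0.10 to 0.12). Abcf2 held 55.0, 51.5, 54.1, 58.8 and 61.4 CPM, with a difference of 0.00 ± 0.06. Abcf1 held 176, 167, 163, 171 and 224 CPM, and Abce1 182, 169, 175, 175 and 122 CPM. DMT 5 was thus the highest library for Abcf1 and the lowest for Abce1. The differences from OGD/R were -0.00 ± 0.06 for Abcf1 and -0.17 ± 0.08 for Abce1 (adjusted p = 0.422). Abcb10 held 20.7, 19.2, 19.9, 21.7 and 18.3 CPM in the DMT group (0.13 ± 0.08), close to or within the OGD/R range.

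The third question was whether BD1063 altered the response to DMT. In the BD1063 group against the DMT group, 0 of 32 genes passed the threshold, beside 0% of all genes, and 0 passed with DESeq2 or limma voom. At an unadjusted p under 0.05 there were 3 ABC genes, beside 7.26% of all genes. They were Abcg2 at -0.23 ± 0.09 (95% interval -0.41 to -0.04; adjusted p = 0.664), Abcf3 at -0.16 and Abcc9 at 1.19. Abcg2 held 42.0 CPM in the lowest BD1063 library, 47.7 at the median and 49.9 at the highest, against 61.9, 49.8, 49.6, 49.1 and 64.5 CPM in the DMT group. The groups overlapped in the 3 lower DMT libraries, and 0 of the 32 genes had groups that did not overlap, beside 0.911% of all genes. Abcc9 held 5 to 17 reads per BD1063 library and 1 to 7 per DMT library.

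Against OGD/R alone, the BD1063 group again had 0 of 32 genes past the threshold in edgeR, beside 5.31% of all genes. At an unadjusted p under 0.05 there were 7, beside 24.9% of all genes, and 22 of 32 differences were above 0, beside 47.1%. DESeq2 called 3, Abca2, Abca7 and Abcb10, beside 1301 of all genes. Calls by limma voom were 4, these among them, beside 1685 of 13834 genes. The OGD/R libraries are shared with the DMT comparison, so the values are set side by side. For Abca7 the difference from OGD/R was 0.22 ± 0.07 in the BD1063 group (adjusted p = 0.0521) and 0.25 ± 0.07 in the DMT group. Of 12 alternatives 10 called Abca7 in the BD1063 group, with adjusted p of 0.0151 to 0.0639, and 3 called it in the DMT group. The lowest, median and highest BD1063 values of Abca7 were 103, 107 and 120.3 CPM, all above the highest OGD/R library at 101 CPM. For Abca2 it was 0.34 ± 0.11 in the BD1063 group (adjusted p = 0.0726) and 0.38 ± 0.12 in the DMT group. BD1063 libraries held 25.04, 26.9 and 30.3 CPM of Abca2, again above all OGD/R libraries, whose highest was 24.9. Abca2 and Abca7 were the 2 genes with no overlap in this comparison, beside 4.78% of all genes.

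Abcb10 held 20.7, 21.4 and 22.9 CPM in the BD1063 group, against 15.4, 17.9 and 21.5 CPM in OGD/R, with OGD/R 3 and OGD/R 4 as the libraries that overlapped. Its difference was 0.24 ± 0.08 (adjusted p = 0.0587). Leaving out single libraries moved Abca2, Abca7 and Abcb10 across the threshold: without OGD/R 3 these 3 passed, and without OGD/R 4 Abca7 and Abcb10 passed. With OGD/R 3, OGD/R 5 and DMT 5 left out together, Abca2, Abca7 and Abcb10 also passed, beside 1471 of 13891 genes. Abcg2 differed from OGD/R by -0.03 ± 0.09 in the BD1063 group (95% interval -0.21 to 0.15).

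**Figure D4:**
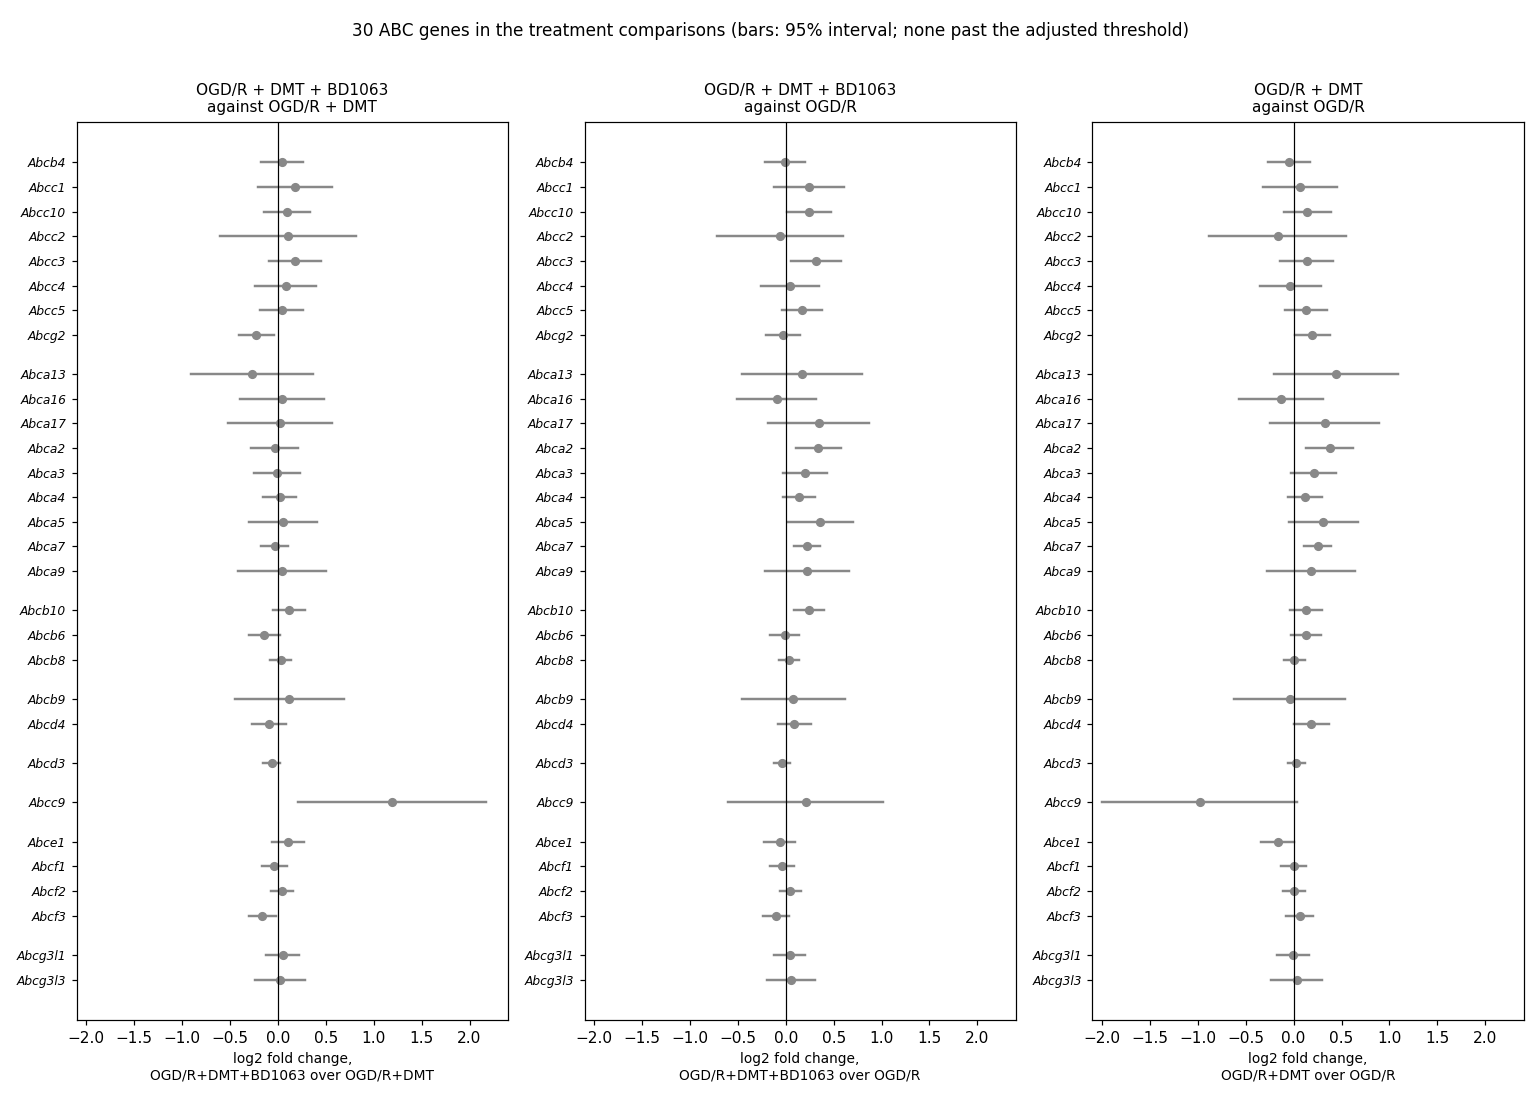
ABC genes in the treated groups. Points are edgeR log2 fold changes and bars 95% intervals for 30 genes in the BD1063 group (n = 6) against the DMT group (n = 5), the BD1063 group against OGD/R (n = 6), and the DMT group against OGD/R. None of them passed the adjusted threshold, and in the right panel Abca2 and Abca7 stand at 0.38 and 0.25 with intervals above 0.

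Both treated groups were also compared with normoxia, and these comparisons share the 6 normoxia libraries with the first one. In the BD1063 group 5 genes were higher and 4 lower, beside 13.1% and 13.2% of all genes and 26.3% in all. In the DMT group 4 were higher and 3 lower, beside 12.8% and 11% of all genes and 23.7% in all. Groups did not overlap for 8 of 32 genes in the BD1063 group, beside 18.3% of all genes, and for 5 in the DMT group, beside 12.7%. Abcg2 stood at -1.25 ± 0.09 in the BD1063 group, -1.03 ± 0.09 in the DMT group and -1.22 ± 0.09 in OGD/R. Abca4 stood at -0.32 ± 0.08 in the BD1063 group, -0.33 ± 0.08 in the DMT group and -0.45 ± 0.08 in OGD/R. Its lowest, median and highest values in the BD1063 group were 252, 260.2 and 293 CPM. Abca7 was at -0.07 ± 0.07 in the BD1063 group (adjusted p = 0.517) and -0.03 ± 0.07 in the DMT group (adjusted p = 0.782), beside -0.28 ± 0.07 in OGD/R. Neither treated group passed the threshold in edgeR. Of 12 alternatives 1, limma voom, called Abca7 lower than normoxia in the BD1063 group (-0.11, adjusted p = 0.0467).

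Abcb8, Abcf1 and Abcf2 were higher than normoxia, and Abcg2 and Abca4 lower, in all 3 comparisons. The BD1063 libraries held 35.5, 36.2 and 38.5 CPM of Abcb8 (0.27 ± 0.05), 168, 175 and 182 CPM of Abcf1 (0.24 ± 0.06) and 56.1, 56.7 and 61.3 CPM of Abcf2 (0.32 ± 0.05). All lay above the normoxia ranges given for these genes. On the log2(deposited value + 1) scale the calls of Abcb8, Abcf1 and Abcf2 were lost in the DMT group, with that of Abcb6, and those of Abca4 and Abce1 in the BD1063 group. Abce1, at 166, 178 and 184 CPM in the BD1063 group, rose by 0.24 ± 0.08 (adjusted p = 0.0253). That call was lost without BD1063 4 (adjusted p = 0.0518) and without normoxia 3 (adjusted p = 0.0684), and on the log2(deposited value + 1) scale the adjusted p was 0.0638. In the DMT group Abce1 stood at 0.14 ± 0.08 (adjusted p = 0.252), and at 0.23 without DMT 5 (adjusted p = 0.0104).

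Abcd4 was lower in the BD1063 group, where it held 9.97, 10.4 and 10.8 CPM (-0.33 ± 0.08, adjusted p = 0.00377), and stood at -0.23 ± 0.09 in the DMT group (adjusted p = 0.053). The DMT and normoxia libraries of Abcd4 did not overlap, but nearly touched, at 12.419 CPM in the highest DMT library and 12.439 CPM in the lowest normoxia library. Of the same 12 alternatives, which are not independent, 8 called it, with adjusted p of 0.00438 to 0.0864 over the 12. Among the 8 were DESeq2 (adjusted p = 0.041) and limma voom (adjusted p = 0.00438). Abcb10 was higher in the BD1063 group (0.24 ± 0.08, adjusted p = 0.0191) and Abcb6 in the DMT group (0.27 ± 0.08, adjusted p = 0.013). The Abcb6 call was lost without DMT 5, which held 24.4 CPM, the most of any library (0.20, adjusted p = 0.0521). It was also lost with OGD/R 3, OGD/R 5 and DMT 5 left out together (adjusted p = 0.0723), with the groups compared alone (adjusted p = 0.0546) and on the log2(deposited value + 1) scale (adjusted p = 0.189).

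Spread between inserts differed widely within the family. The SD within groups had a median of 0.188 on the log2 scale over the 32 genes and 0.190 over all genes tested. Among genes of at least 5 CPM it was largest for Abca9, at 0.430, and Abcc1, at 0.355, and smallest for Abcd3 and Abcb8. Abcc1 reached only 18.1 CPM in DMT 5 and 17.4 CPM in OGD/R 5, while the remaining DMT and OGD/R libraries held 30.4 to 41.3 CPM. The same 2 libraries were lowest for Abca9, at 18.7 and 22.2 CPM.

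Promoters of the tested genes were richer in CpG than those of the untested ones. Tested genes are those with enough reads, and the windows of all genes were not split in this way. Whether the contrast is particular to ABC genes was therefore not tested. Each ABC gene stood with its most upstream annotated start, while the windows of all genes included every annotated start. A median of 19 CpG stood in the 250 bases for 26 tested genes, beside 5 for 12 untested genes and 5 over all 33469 windows. The median G and C content was 60.4%, 51.4% and 51.2%. Abca4 and Abca9 were well covered by reads but had 6 and 2 CpG. The ACGTG core of the hypoxia response element was in 7 of 38 windows, beside 16.6% of all, and was not found in the windows of Abcg2, Abce1 or Abcf2. GGGCGG, the GC box, was in 20 of 38 windows, beside 30.5% of all, and TATAAA in 4 of 38, beside 12.9%.

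Regulators and partners of the family were read from a list of 46 genes, of which 35 were tested. In OGD/R 4 of them rose and 9 fell, where 18.9% of all genes rose and 16.7% fell, 35.5% in all, so the share that changed was near that of all genes. Among 15 tested transcription factors known to act on efflux pump genes, 5 fell and 1 rose. Pparg, a nuclear receptor known to induce ABCG2 in human cells, fell by 0.77 ± 0.17 (adjusted p = 0.000837), with 1.89 to 3.92 CPM in OGD/R and 4.18 to 6.11 CPM in normoxia. The liver X receptor gene Nr1h3 fell by 0.39 ± 0.10, the lysosomal regulator gene Tfeb by 0.38 ± 0.10, the glucocorticoid receptor gene Nr3c1 by 0.23 ± 0.08 and Ppard by 0.21 ± 0.07. Nfe2l2, the gene of the oxidative stress factor NRF2, rose by 0.17 ± 0.06 (adjusted p = 0.027). The pregnane X receptor gene Nr1i2 had 1 read in all libraries and the constitutive androstane receptor gene Nr1i3 had 3. Ahr, the aryl hydrocarbon receptor gene, did not pass in OGD/R (0.06 ± 0.08) but was higher in the BD1063 group than in OGD/R (0.35 ± 0.08, adjusted p = 0.0283), as was Ppard (0.27 ± 0.07, adjusted p = 0.0354). The DMT group lay between: OGD/R, DMT and BD1063 means were 66.4, 79.6 and 84.4 CPM for Ahr. For Ppard they were 96.8, 107 and 117 CPM.

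Of the 5 ribosome rescue and stress partners 1 rose in OGD/R, Eif2s1, by 0.39 ± 0.07 (adjusted p = 0.00019). It encodes the initiation factor subunit whose phosphorylation slows translation, and it was lower in the BD1063 group than in OGD/R by 0.30 ± 0.07 on the log2 scale (adjusted p = 0.0312). Eif2s1 averaged 150 CPM in OGD/R, 135 CPM in the DMT group and 122 CPM in the BD1063 group. Among membrane anchors and adaptors 2 of 6 fell, Slc9a3r2 by 0.23 ± 0.08 and the caveolin gene Cav1 by 0.15 ± 0.05. The peptide transporter genes Tap1 and Tap2, ABC genes by sequence with other symbols, stood at -0.04 ± 0.06 and -0.12 ± 0.09. In the same peptide loading pathway Tapbp rose by 0.21 ± 0.06 and B2m fell by 0.35 ± 0.10. Kcnj8, the channel partner of Abcc9, rose by 1.78 ± 0.28, with 0.704 to 2.06 CPM in OGD/R and 0.249 to 0.595 CPM in normoxia. The whole list of 10 pericyte and mural cell markers, to which Kcnj8 belongs, summed to 42.5 to 85.3 CPM in OGD/R and 45.1 to 82.5 CPM in normoxia, with 5 of the 10 under 1 CPM and Acta2 as the larger share of the sum. Besides Kcnj8, 1 of the 6 markers tested changed. Pdgfrb, a growth factor receptor gene of pericytes, was lower in OGD/R, with a log2 difference of -0.94 (adjusted p = 0.00884), and Notch3 stood at -1.07 (adjusted p = 0.15). In the DMT group against OGD/R and in the BD1063 group against the DMT group 0 of the 35 passed the threshold. In the BD1063 group against OGD/R 2 were higher and 1 lower, beside 5.31% of all genes in either direction. Against normoxia, 6 were higher and 8 lower in the BD1063 group, beside 13.1% and 13.2% of all genes. Of the same 35 genes, 5 were higher and 6 lower in the DMT group, beside 12.8% and 11% of all genes.

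**Figure D5:**
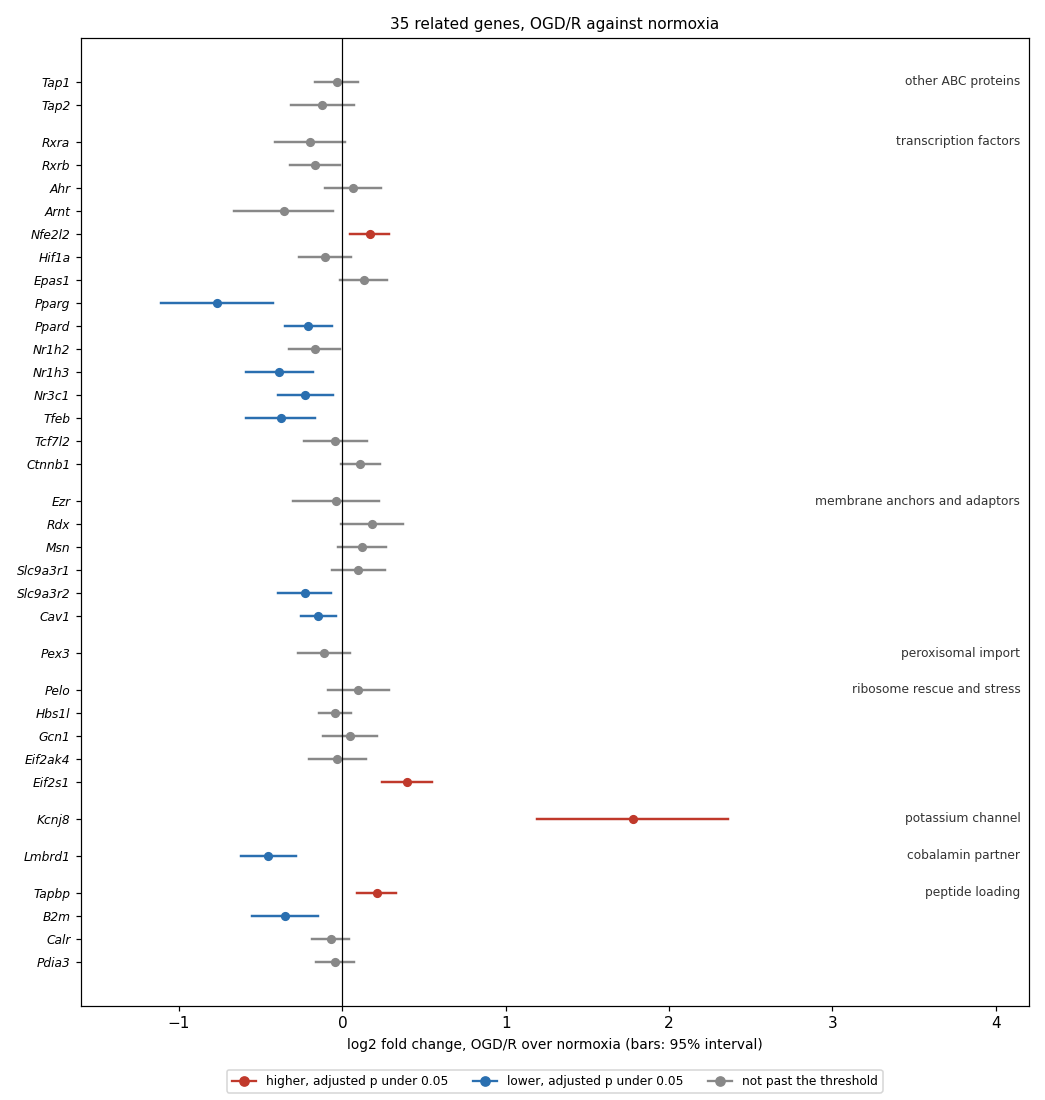
Regulators and partners of ABC genes in OGD/R (n = 6) against normoxia (n = 6). Points are edgeR log2 fold changes, OGD/R over normoxia, and bars their 95% intervals, for 35 listed genes coloured by whether the adjusted p passed 0.05. Kcnj8 is highest at 1.78 and Pparg lowest at -0.77.

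Of the 9 endothelial markers tested, 2 rose in OGD/R, Kdr and Flt1, and 3 fell, Tie1, Slc2a1 and Esam. Among all genes 18.9% rose and 16.7% fell. The summed endothelial level of the BD1063 group, at 7899 to 8249 CPM, lay below normoxia at 8425 to 9089 CPM. Markers of other cell types also differed. Fibroblast and meningeal markers, of which 6 of 7 were found and 2 averaged under 1 CPM, summed to 104 to 395 CPM in the BD1063 group, 149 to 399 CPM in the DMT group, 136 to 419 CPM in OGD/R and 425 to 945 CPM in normoxia. No OGD/R-exposed library reached the lowest normoxia library, as was so for Abcg2, and the part of these cells in the results was not tested. Of the 4 tested in OGD/R against normoxia, 3 fell, Col1a1, Col3a1 and Fbln1, and Dcn and Lum were under 1 CPM. Astrocyte markers summed to 139 to 170.1 CPM in the BD1063 group, 104 to 139.8 CPM in the DMT group, 136 to 212 CPM in OGD/R and 122 to 134 CPM in normoxia, so OGD/R and normoxia did not overlap. Nearly all of that was Gja1, the connexin 43 gene, which was higher in OGD/R by 0.30 (adjusted p = 0.00921), while the other 6 markers, Gfap and Aqp4 among them, were under 1 CPM. Among 4 tested microglial and leukocyte markers 1 rose in OGD/R, Itgam, by 1.63 (adjusted p = 0.000108), at a mean of 1.11 CPM in OGD/R and 0.349 CPM in normoxia. Their part in the results was not tested. Microglial and leukocyte markers summed to at most 8.75 CPM in any library, neuronal markers to 3.17 and choroid plexus markers to 0.391.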

How the data were processed

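The authors deposited a table of gene counts and a table of normalized values for 23 libraries. Per the labels' protocols, RNA was column-extracted and enriched for poly-A, and strand-specific libraries were sequenced as single reads. Per the submitters' processing notes, cutadapt 3.4, FastQC 0.11.9, STAR 2.7.10a, RSEM 1.3.3 and DESeq2 1.38 were used with the build Rnor_6.0. The deposited normalized values, though named TPM, behaved as CPM of a wider read total: each was a count divided by 1 number per library. Of these values 100% gave whole reads within 0.01 reads, equal to the counts. Gene counts made up 58.8% of the read total in OGD/R 3, 62.6% in DMT 3, 68.1% in DMT 5 and 71.5% to 75.7% in the other libraries. A lower share lowers all values of a library on this scale.

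Counts of 32883 identifiers were analysed in R 4.3.3 with edgeR 4.0.16: filterByExpr with a minimum of 10 counts left 13834 genes, libraries were TMM-scaled, and 1 quasi-likelihood fit over 4 group means gave each contrast and a joint test. P-values were adjusted over all genes tested (Benjamini-Hochberg, threshold 0.05). Levels are TMM-scaled CPM and are compared between groups, not between genes. Intervals are 95%. Every count or unit column was matched to a sample, with 0 columns left unused. Scripts were tested on simulated data. The members and lists were chosen with earlier results of these data known.

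Levels by group are given for genes that averaged 5 CPM or more and passed the joint test, for Abcg2, and for any gene called between treatments. They are the lowest, median and highest value in groups of 6, and the value of each library in the DMT group. Listed partner genes are named where called in OGD/R against normoxia, or as values. limma 3.58.1 and DESeq2 1.42.0, other filters and scalings, a replicate block and each library left out were alternatives. The test on recovered reads was chosen after seeing the data, and it repeats the main fit because those reads equal the counts. No pair of replicate libraries agreed within sampling noise. Of the genes counted among the 47, 2 are not reported individually here.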

Additional observations from a re-analysis of the deposited data

Results flagged for a closer look

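In 7 of the 44 groups formed by the 11 genes and 4 conditions, 1 library stood farther from the others than Dixon's 95% critical value allows, where chance gives about 1 in 20. Library DMT 5 was the one in 4 of them. It held 20.3 CPM of Abca2, against 28.0 to 31.0 CPM in the other DMT libraries. It held 33.2 CPM of Abcb8, against 36.0 to 37.0 CPM in the others. It held 122 CPM of Abce1, below 169 to 182 CPM, and 224 CPM of Abcf1, above 163 to 176 CPM. OGD/R 5 held 76.8 CPM of Abca7, below the remaining libraries of its group at 93.1 to 101 CPM. BD1063 library 4 held 38.5 CPM of Abcb8, above 35.5 to 36.4 CPM. Normoxia 3 held 131 CPM of Abce1, below 150.2 to 156 CPM.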

How the results depend on the processing

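No direction of a called gene was reversed under any alternative run. The fall of Abcg2 in OGD/R was called under each of them. Leaving out each library in turn gave 8 to 11 ABC genes called in OGD/R against normoxia and 0 to 3 in the DMT group against OGD/R, where 3 were called without DMT 5. It gave 0 to 0 in the BD1063 group against the DMT group, 0 to 3 in the BD1063 group against OGD/R, 6 to 8 in the DMT group and 8 to 9 in the BD1063 group against normoxia, and 9 to 14 in the joint test. In the DMT group against OGD/R, where edgeR called 0, 1 gene was called by DESeq2, 2 by limma voom and 2 with OGD/R 3, OGD/R 5 and DMT 5 left out. In the BD1063 group against OGD/R, where edgeR called 0, 1, Abca7, was called with DESeq2 size factors, with a filter of 50 counts or among protein-coding genes alone, 2 with the groups compared alone, 3 by DESeq2 or on log2(deposited value + 1 or + 0.1), and 4 by voom or with the 3 libraries left out. In the DMT group against normoxia, where edgeR called 7, voom called 13 and the log2 scales 4. In the joint test voom added Abcc4, Abcc5 and Abcg3l3, and the log2 scales added Abcc3 and lost Abcb8 and Abce1, among others. The cause of these shifts was not tested.

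Same-numbered libraries deviated together, with r over 0.1, in 11 of 33 pairs. For OGD/R with DMT, OGD/R with normoxia and DMT with normoxia, r was 0.580, 0.415 and 0.449 for replicate 5. It was 0.258, 0.177 and 0.210 for replicate 4 and 0.129, 0.171 and 0.264 for replicate 1. Replicates 2, 3 and 6 gave -0.188 to 0.195 between these groups. In pairs with the BD1063 group, r passed 0.1 only for OGD/R 3 (0.258). The main fit did not pair libraries, and the replicate was a block in an alternative. With the replicate as a block, 2 genes, Abca7 and Abcb10, were called in the BD1063 group against OGD/R. The block also added Abcg3l3 in the DMT group against normoxia (adjusted p = 0.034), in the BD1063 group against normoxia (adjusted p = 0.034), and the joint test called 12 genes in place of 11. The joint test could not be fitted with the groups compared alone.

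Over all genes, edgeR called 68 in the DMT group against OGD/R, DESeq2 265, voom 752, no filter 37, the block 37, the groups alone 4, the log2 scales 5 and the 3 libraries left out 453. Without DMT 5 it was 1083. In the BD1063 group against OGD/R edgeR called 735, of which 257 were higher, DESeq2 1301, voom 1685, no filter 257, the groups alone 1500, the 3 libraries left out 1471 and log2(value + 0.1) 491, of which 476 were higher. On that last scale the median of all genes was 0.11, against -0.01 in edgeR, so differences there are relative to it. In OGD/R against normoxia edgeR called 4916, of which 2608 were higher, and log2(value + 1) 3635, of which 1291 were higher. In the DMT group against normoxia edgeR called 3284 and the log2 scales 2114 and 2074. In the BD1063 group against normoxia edgeR called 3636 and voom 5903. Genes under 1 CPM rest on few reads, so their intervals are wide.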
